A study of Arabidopsis thaliana with 12 samples.

Results

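Overexpression of the transcription factor ASR3 was examined at rest, by setting seedlings of the line OX9 without flg22 against wild-type (WT) seedlings without flg22. The members of the comparison were taken from the labels: the 2 OX9 libraries and the 2 WT libraries without flg22, 4 of the 12 libraries of the series, paired by the number of the repeat. Of 33197 genes in the deposited table, 20753 reached 1 FPKM (fragments per transcript length and library size) in at least 2 of the 12 libraries and were tested. OX9 carries ASR3 with an HA tag behind 35S, a viral promoter that is active in most plant tissues, and is 1 transgenic line, so that an effect of the place of insertion and an effect of ASR3 cannot be told apart. WT is Col-0, which the labels give as the cultivar of all plants. The seedlings were whole plants of 10 days, kept in water overnight, and in the groups with flg22, used only for the comparison given later, the peptide was added for 30 min. The mutant line asr3-1, without flg22, is given beside some values; its comparison with WT uses the same WT libraries, and 0 of its genes passed the test (limma; 3.13% at an unadjusted p under 0.05).

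Trihelix factors are plant transcription factors that bind GT-rich elements in DNA. ASR3 belongs to this family, is known as a repressor of genes of pattern-triggered immunity, and is phosphorylated by the MAP kinase MPK4 after flg22, a peptide of bacterial flagellin, is perceived. The question was which transcripts differ when the repressor is present in excess before any elicitor is given.

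The libraries held 19137 to 19621 genes at 1 FPKM or more, with FPKM sums of 981113 to 1249261. Their make-up differed between the repeats. Without flg22, the gene MT1A alone held 14.96% of the sum in OX9 and 13.29% in WT of repeat 2. In repeat 1 the largest share of a single gene was 1.71% in OX9 (MT1A) and 4.19% in WT (AT2G01021). Only FPKM are at hand, so the depth is unknown. Per the design text, RNA from 2 biological replicates was pooled for a library, so pools and not plants give the spread behind each test. Marker lists of green tissue and of root were set side by side. The 38 photosynthesis genes summed to 160237 and 131085 FPKM in OX9 against 162723 and 134358 FPKM in WT, and the root markers to 2433 and 1920.5 FPKM in OX9 against 2243 and 1519 FPKM in WT. Both sums overlapped between the genotypes, but within each repeat the photosynthesis sum was lower and the root sum higher in OX9. Gene by gene the lists did not follow the sums. Of the photosynthesis genes, 22 of 38 were higher in OX9 (median log2 difference 0.00), and of the root markers 17 of 35 (median -0.08). In whole seedlings, fewer cells of a type and less RNA per cell cannot be told apart.

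ASR3 and the noncoding RNA AT2G01422 were the genes that differed past the test, both higher in OX9. They were 2 of 20753 genes (0.00964%; limma on log2(FPKM + 1) with the repeat as a block, Benjamini-Hochberg adjusted p under 0.05), and 0 genes were lower. At an unadjusted p under 0.05, 415 genes were higher (2.00%) and 392 lower (1.89%), 3.89% in either direction. Both OX9 libraries lay above both WT libraries in 1831 genes (8.82%) and below both in 1571 genes (7.57%). The differences of the repeats had little in common over all genes: they had the same sign in 52.2% of genes, and their Pearson correlation across genes was 0.085. A difference of 1 or more on the log2 scale, which is 2-fold, was met by 161 genes on the higher and 108 on the lower side, but by only 39 and 24 of these directions when each repeat had to show it alone. The 95% confidence interval of a gene's difference, not adjusted for the number of genes, had a median half-width of 0.41 on the log2 scale. The adjusted test asked for more: PAP22, at a log2 difference of 2.76 (SE 0.42), had an adjusted p of 0.67 by limma. The count of 2 genes therefore does not exclude changes well above 0.41 in other genes.

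**Figure D1:**
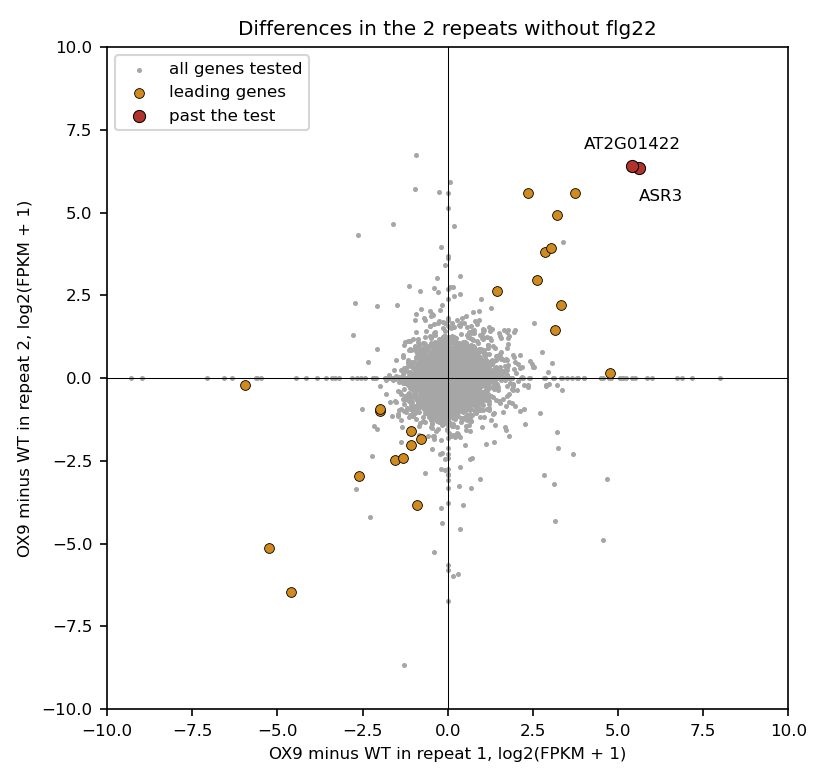
OX9 minus WT in repeat 1 (horizontal) against the same difference in repeat 2 (vertical), on log2(FPKM + 1), without flg22. Each grey point is 1 of 20753 genes, orange points are the other leading genes named by size, and red points are ASR3 and AT2G01422, which passed the test and stand far to the upper right, while the grey cloud shows almost no slope (r = 0.085).

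ASR3 (AT2G33550) lies at chr2:14209982-14211693 on the minus strand (RefSeq annotation of TAIR10.1) and has 3 exons. It stood at 521 and 590.4 FPKM in the OX9 libraries of repeats 1 and 2, against 9.59 and 6.24 FPKM in the WT libraries. The groups lay far apart in both repeats, and the label of OX9 as an overexpressing line matches its own transcript. The log2 difference was 5.99 (SE 0.32, 95% interval 5.23 to 6.75, adjusted p = 0.0044 by limma, n = 2 each). The call was lost when the OX9 library of repeat 2 (adjusted p = 0.080), the WT library of repeat 1 (0.134) or the WT library of repeat 2 (0.121) was left out, and in a fit of the 6 libraries without flg22 (0.127), while the difference stayed between 5.67 and 6.31. The genes on either side had overlapping groups. AT2G33540, which encodes a phosphatase of the C-terminal domain of RNA polymerase II, stood at 7.53 and 12.3 FPKM in OX9 against 7.72 and 12.5 FPKM in WT (log2 -0.03, SE 0.11). BUBR1, a relative of the spindle checkpoint kinase BUB1, stood at 5.06 and 1.93 FPKM in OX9 against 4.48 and 1.51 FPKM in WT (log2 0.18, SE 0.23). In asr3-1, set against the same WT libraries, ASR3 was at 6.58 and 2.50 FPKM, a log2 difference of -0.76 (unadjusted p = 0.048), which did not pass the test.

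AT2G01422 is annotated as a noncoding RNA at chr2:183940-184734 on the plus strand, with 2 exons. It stood at 41.9 and 84.6 FPKM in OX9 and was listed at 0 in both WT libraries (adjusted p = 0.047 by limma, higher in both repeats). A fold is not given, since WT is at 0, and the gene met the filter of 1 FPKM only through OX9 libraries. The call was narrow and was lost when any 1 of the 4 libraries was left out (adjusted p = 0.068 to 0.663). In asr3-1 the RNA was at 0.694 and 0.725 FPKM. It starts 175 bases from the start of PIN4 (AT2G01420), an auxin efflux carrier gene that is read in the other direction, so that both genes open onto the same short gap. PIN4 stood lower in OX9, at 44.4 and 36.5 FPKM against 52.5 and 47.1 FPKM in WT, with groups that did not overlap (log2 -0.30, SE 0.15, unadjusted p = 0.077), which is no call. HB17, a homeodomain-leucine zipper gene 2873 bases further on, stood at 8.11 and 1.66 FPKM in OX9 against 6.21 and 2.09 FPKM in WT.

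Sequences are not shown for every protein-coding gene that stood apart in OX9 with and without flg22, and SCPL33 and AT4G00165 are among those left out. The gap between PIN4 and AT2G01422, and the 250 bases before 3 other genes of this kind, are shown as examples of stretches where a GT element could lie. They are read 5′ to 3′ on the strand of the gene named, from the RefSeq genome of TAIR10.1, and capitals mark the letters of the elements searched, on either strand: GGTTAA as the first motif, GGTAAT as the second and GGTAAA as the last. The regions are chr2:183765-183939 (plus strand, before AT2G01422), chr3:19577142-19577391 (minus strand, before PAP22), chr3:20502193-20502442 (plus strand, before AT3G55290) and chr2:12542466-12542715 (minus strand, before AT2G29170).
AT2G01422: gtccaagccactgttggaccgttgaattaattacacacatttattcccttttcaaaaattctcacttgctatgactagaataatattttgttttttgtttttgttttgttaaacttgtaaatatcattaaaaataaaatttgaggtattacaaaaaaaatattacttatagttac
PAP22: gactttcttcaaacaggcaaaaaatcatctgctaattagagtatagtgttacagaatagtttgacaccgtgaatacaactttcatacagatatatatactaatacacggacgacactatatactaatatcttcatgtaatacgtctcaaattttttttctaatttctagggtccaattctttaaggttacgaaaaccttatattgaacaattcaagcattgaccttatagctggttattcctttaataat
AT3G55290: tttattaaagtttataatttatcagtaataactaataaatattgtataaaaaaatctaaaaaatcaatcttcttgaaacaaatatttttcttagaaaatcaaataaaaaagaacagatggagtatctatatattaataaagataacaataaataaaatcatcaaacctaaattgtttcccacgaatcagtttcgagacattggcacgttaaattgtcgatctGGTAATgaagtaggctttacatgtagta
AT2G29170: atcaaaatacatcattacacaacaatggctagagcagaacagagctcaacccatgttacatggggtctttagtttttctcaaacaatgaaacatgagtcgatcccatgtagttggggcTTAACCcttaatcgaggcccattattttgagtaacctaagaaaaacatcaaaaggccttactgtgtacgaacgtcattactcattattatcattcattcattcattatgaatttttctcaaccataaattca
AT3G55290 held 1 GGTAAT and AT2G29170 held 1 GGTTAA, on the other strand, while the windows before AT2G01422 and PAP22 held none of these letters. Over all 27443 protein-coding genes, the 250 bases before the start held at least one of the motifs in 35.25%, with GGTTAA in 14.62%, GGTAAT in 11.29% and GGTAAA in 14.83%; for windows of 175 bases the share with any of them was 26.52%. Among protein-coding genes at an unadjusted p under 0.05, the share with any motif was 35.42% of 384 genes higher in OX9 and 37.9% of 372 genes lower in OX9, against 35.83% of all 20029 protein-coding genes tested. A match is a match of letters, and these shares lie close together.

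The genes that stood farthest from WT after ASR3 and AT2G01422 were named by size: the 12 highest and 12 lowest among genes with an unadjusted p under 0.05, a mean of at least 5 FPKM in the higher group, and groups that did not overlap. Apart from ASR3 and AT2G01422, 0 of the 24 passed the test. Of the 24, 8 are shorter than 500 bases and 3 are not protein-coding.

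SCPL33 (AT3G17180, chr3:5855632-5859189, minus strand), which encodes a serine carboxypeptidase-like protein, stood at 8.25 and 31.7 FPKM in OX9 against 0 and 0.077 FPKM in WT (adjusted p = 0.67). Both OX9 libraries held the transcript and the WT libraries held almost none, as did asr3-1, listed at 0 in both libraries. SCPL33 reached 1 FPKM in OX9 libraries only, so it was tested only through the group where it is high. PAP22 (AT3G52820, chr3:19573916-19577141, minus strand), a purple acid phosphatase gene, stood at 15.7 and 24.2 FPKM in OX9 against 0.678 and 4.47 FPKM in WT (log2 2.76, SE 0.42, adjusted p = 0.67). That its groups did not overlap was a condition for naming it, as for all leading genes. AT3G55290, a gene of the NAD(P)-binding Rossmann-fold family, stood at 43.5 and 49.6 FPKM in OX9 against 15.3 and 7.19 FPKM in WT (log2 2.04, SE 0.30, adjusted p = 0.67). Its neighbour AT3G55310, annotated to the same family, was at 0.765 and 1.21 FPKM in OX9 against 1.21 and 0.430 FPKM in WT, with overlapping groups. The treatment of reads that match several places is not stated by the labels or headers, so values of such relatives are uncertain. The pseudogene AT1G43590 stood at 22.5 and 52.7 FPKM in OX9 against 2.84 and 5.86 FPKM in WT (log2 2.79, SE 0.47, adjusted p = 0.67).

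AT1G51920, an uncharacterized short gene, stood at 6.20 and 13.1 FPKM in OX9 and was listed at 0 in both WT libraries and in both asr3-1 libraries. U12, a spliceosomal RNA, was at 12.3 and 47.3 FPKM in OX9 against 0 in both WT libraries, and asr3-1 held it too, at 6.63 and 13.8 FPKM. AT3G63052 (4.08 and 46.8 FPKM) and AT4G36791 (7.16 and 14.3 FPKM), both uncharacterized, were likewise listed at 0 in WT. A value of 0 in this table need not mean absence: U12, which every cell uses, was also listed at 0 in both WT libraries with flg22 and in 1 of the OX9 libraries with flg22. AT3G63052 and AT4G36791 were at 3.86 and 10.5 FPKM in the WT library of repeat 1 with flg22. AT5G45430, a protein kinase gene, stood at 53.3 and 34.7 FPKM in OX9 against 0.992 and 30.9 FPKM in WT, so that the difference came almost wholly from repeat 1. AT3G02480, of the late embryogenesis abundant family, stood at 31.9 and 2.69 FPKM in OX9 against 2.68 and 0.350 FPKM in WT, groups that only just did not overlap.

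On the lower side, AT4G00165, of the lipid-transfer protein family, stood at 16.3 and 6.43 FPKM in OX9 against 49.8 and 40.7 FPKM in WT (log2 -2.02, SE 0.41, adjusted p = 1). Its level in asr3-1, at 50.5 and 41.2 FPKM, was close to that of WT in each repeat. AT2G29170, a second gene of the Rossmann-fold family, stood at 8.98 and 13.1 FPKM in OX9 against 20.2 and 41.8 FPKM in WT (log2 -1.34, SE 0.22, adjusted p = 0.67). ALMT1, a malate channel of the root, stood at 5.14 and 1.84 FPKM in OX9 against 12.0 and 10.5 FPKM in WT (log2 -1.55, SE 0.48). IDL2, a relative of the abscission peptide IDA, stood at 1.08 and 2.89 FPKM in OX9 against 7.23 and 6.74 FPKM in WT (log2 -1.49, SE 0.29). Levels of ALMT1 and IDL2 were low, and groups that lay apart were a condition for naming them. RIC10, a binding partner of ROP GTPases, stood at 1.47 and 0.525 FPKM in OX9 against 8.86 and 1.93 FPKM in WT. AT4G22460, again of the lipid-transfer protein family, stood at 14.4 and 5.40 FPKM in OX9 against 25.6 and 21.8 FPKM in WT.

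AT3G19663 and AT5G65609, both uncharacterized, were listed at 0 in both OX9 libraries. In WT they stood at 23.4 and 87.1 FPKM and at 37.2 and 34.2 FPKM, in that order of genes. AT3G19663 was listed at 0 in both asr3-1 libraries, and AT5G65609 stood at 8.73 and 0 FPKM there. With flg22, AT3G19663 was at 21.2 and 0 FPKM in OX9 and listed at 0 in both WT libraries. AT5G65609 was at 40.9 and 34.9 FPKM in OX9 against 15.5 and 16.1 FPKM in WT with flg22. AT2G35733, AT1G79170, AT3G16712 and the RING-type gene AT4G00305 completed the lowest 12, each with 1 OX9 library below 0.1 FPKM.

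**Figure D2:**
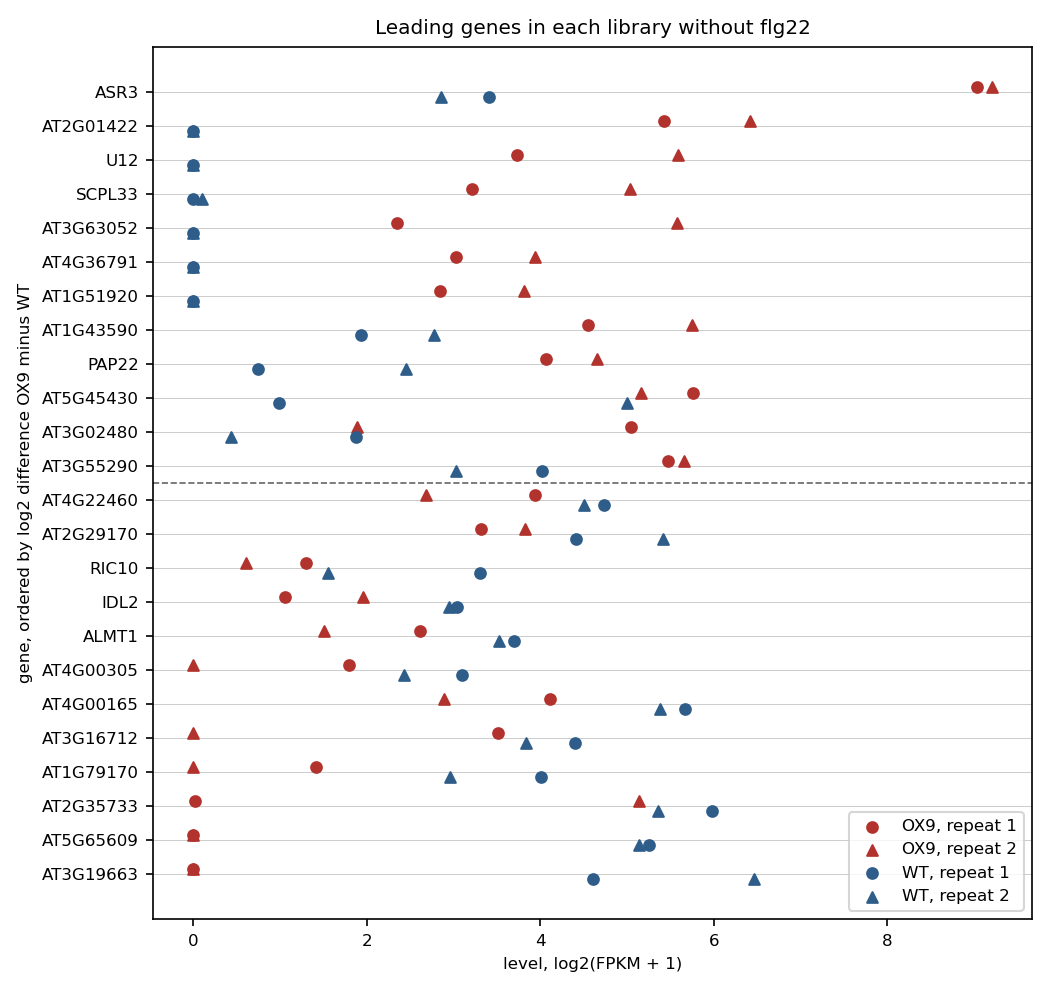
Levels of the 12 highest (above the dashed line) and 12 lowest genes (below it) in each library without flg22, on log2(FPKM + 1). Red points are OX9 and blue points WT, circles are repeat 1 and triangles repeat 2; ASR3 is at 521 and 590.4 FPKM in OX9 against 9.59 and 6.24 FPKM in WT, and 6 of the genes above the line have both WT points at or near 0.

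Whether these differences stood in other libraries was read from OX9 against WT with flg22, which shares no library with the comparison at rest but shares its estimate of the spread. There 1 gene, ASR3, passed the test (0.00482%), and 317 genes were higher (1.53%) and 499 lower (2.40%) at an unadjusted p under 0.05. Of the 807 genes at that level without flg22, 574 had the same sign with flg22 (71.1%), against 56.9% of all genes tested. Both conditions were met in the same direction by 138 genes, 68 higher and 70 lower, which are 17.1% of the 807 and 16.9% of the 816 genes. Of the 24 leading genes, 6 of the higher and 2 of the lower did so: ASR3, AT2G01422, SCPL33, AT1G43590, PAP22, AT3G55290, AT4G00165 and AT2G29170.

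With flg22, SCPL33 stood at 10.2 and 38.6 FPKM in OX9 against 0 in both WT libraries, and AT2G01422 at 23.2 and 75.0 FPKM in OX9 against 0.536 and 0 FPKM in WT. PAP22 stood at 16.2 and 22.7 FPKM in OX9 against 0.746 and 1.43 FPKM in WT (log2 3.29, unadjusted p = 7.4e-05). AT3G55290 stood at 36.8 and 40.0 FPKM in OX9 against 11.6 and 6.27 FPKM in WT (log2 2.04). AT4G00165 stood at 16.8 and 4.95 FPKM in OX9 against 31.5 and 37.5 FPKM in WT (log2 -1.78). All 5 of these genes were taken from those that met both conditions in the same direction, so their direction with flg22 was fixed by that choice. Their OX9 and WT libraries with flg22 did not overlap, which that choice also favours. At rest asr3-1 lay at log2 differences from the same WT libraries of -0.11 for PAP22, -0.08 for AT3G55290 and 0.02 for AT4G00165. The other 16 leading genes missed that level or had the other sign with flg22. AT1G51920 stood at 6.46 and 28.8 FPKM in OX9 against 17.9 and 45.0 FPKM in WT with flg22. The interaction of genotype with flg22 passed the test for 0 genes (limma; 440 genes at an unadjusted p under 0.05).

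**Figure D3:**
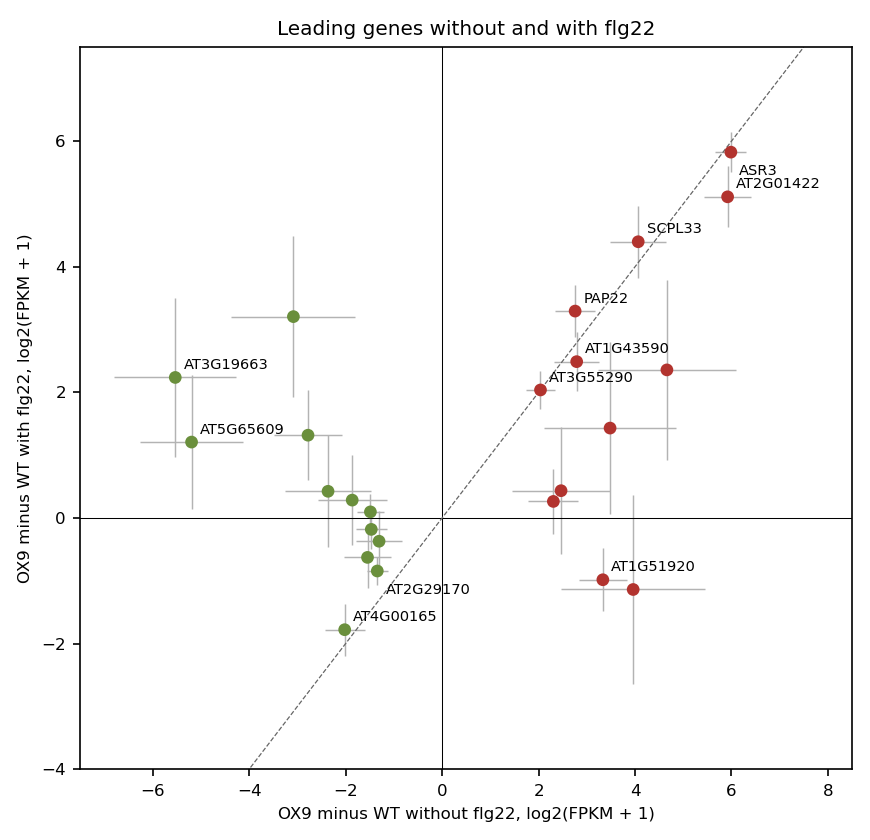
OX9 minus WT without flg22 (horizontal) against OX9 minus WT with flg22 (vertical) for the 24 leading genes, on log2(FPKM + 1), with bars of 1 SE and the line of equal values dashed. Red points are the genes higher in OX9 without flg22 and green points the lower ones; ASR3, AT2G01422, SCPL33, PAP22, AT1G43590 and AT3G55290 lie near the dashed line, while AT3G19663 and AT5G65609 lie on the other side of 0 with flg22.

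Further genes with both conditions at an unadjusted p under 0.05 were picked after their values were seen. AT3G57160, annotated as a cysteine-rich stress tolerance protein, had the third smallest p at rest. It stood at 24.2 and 16.9 FPKM in OX9 against 6.44 and 5.55 FPKM in WT without flg22 (log2 1.61, SE 0.16, adjusted p = 0.078). With flg22 it stood at 26.5 and 16.3 FPKM in OX9 against 7.96 and 6.04 FPKM in WT (log2 1.46, adjusted p = 0.096). In asr3-1 it lay on the other side of WT, at 5.40 and 2.99 FPKM (log2 -0.47, unadjusted p = 0.019, adjusted p = 1). NUB, a zinc finger gene of lateral organ growth, stood at 3.16 and 5.23 FPKM in OX9 against 0.328 and 1.27 FPKM in WT. XYP1, a xylogen gene of vascular differentiation, stood at 30.6 and 40.1 FPKM in OX9 against 18.6 and 13.0 FPKM in WT (log2 1.12). RGF5, a root meristem growth factor peptide gene, had a log2 difference of 1.02, and AT1G30860, a RING-type gene, one of 1.70. On the lower side, KNAT1, a homeobox gene of the shoot meristem, stood at 6.07 and 9.92 FPKM in OX9 against 10.9 and 13.7 FPKM in WT (log2 -0.59). FAD2, the desaturase of oleate in the endoplasmic reticulum, stood at 596 and 498 FPKM in OX9 against 699 and 667 FPKM in WT (log2 -0.33). UNE10, a bHLH gene, had a log2 difference of -0.78, ELI3-1, a cinnamyl alcohol dehydrogenase gene, one of -0.72, and HB33, a zinc finger homeodomain gene, one of -0.66. None of these passed the test.

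Lists of pathway genes were described by counts and medians beside those of all genes tested, of which 52.9% lay above 0 and 47.1% below 0, with a median log2 difference of 0.01. At an unadjusted p under 0.05 (limma), 2.00% of all genes tested were higher and 1.89% lower. Over 31 lists, no member other than ASR3 passed the test. Leaving out 1 of the 4 libraries changed the sign of the median in 26 lists. It did not in the lists of expansins, GH3 enzymes, iron deficiency, phosphate starvation and low oxygen.

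Of 19 expansins tested, which loosen the cell wall, 18 lay below 0 with a median of -0.19, 1 of them at an unadjusted p under 0.05. The median lay between -0.28 and -0.16 with any 1 library left out, and was -0.20 with flg22, where 17 of 19 lay below 0 (54.3% of all genes tested lay below 0 there and 45.6% above). In asr3-1 the median was -0.03. EXPA7, an expansin of root hairs that is also in the list of root markers, stood at 9.09 and 5.74 FPKM in OX9 against 14.0 and 9.98 FPKM in WT (log2 -0.64, unadjusted p = 0.022). EXPA8 stood at 96.9 and 63.0 FPKM in OX9 against 129.8 and 76.9 FPKM in WT (log2 -0.35). It was lower within each repeat, but its groups overlapped, and the difference was -0.63 to -0.07 with 1 library left out. Of 29 wall-remodelling XTH enzymes, 15 lay below 0 without flg22, with a median of -0.01 that lay between -0.03 and 0.03 with any 1 library left out. With flg22, 22 of 29 lay below 0 (median -0.17). XTH6 stood at 204 and 209.8 FPKM in OX9 against 264 and 297 FPKM in WT (log2 -0.43, unadjusted p = 0.0048), and at 137 and 135 FPKM in OX9 against 190.0 and 174 FPKM in WT with flg22.

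Medians of the auxin-related lists also lay below 0, and apart from that of the GH3 enzymes their sign depended on single libraries. Of 63 SAUR genes, small auxin-induced regulators of growth, 44 lay below 0 with a median of -0.10, and 3 were lower at an unadjusted p under 0.05. SAUR26 stood at 6.10 and 1.30 FPKM in OX9 against 10.8 and 4.17 FPKM in WT (log2 -0.95). SAUR12 stood at 2.27 and 0.681 FPKM in OX9 against 4.20 and 3.24 FPKM in WT (log2 -1.0), and SAUR20 at 22.3 and 10.0 FPKM in OX9 against 31.3 and 27.0 FPKM in WT (log2 -0.91). With 1 library left out, the differences of SAUR12 (-1.45 to -0.55) and SAUR20 (-1.36 to -0.46) moved widely. The SAUR median was 0.02 with OX9 of repeat 1 left out and -0.28 with WT of repeat 1 left out. Of 26 Aux/IAA repressors, 16 lay below 0 (median -0.09), among them IAA29, at 2.73 and 3.98 FPKM in OX9 against 4.39 and 9.34 FPKM in WT. Without the OX9 library of repeat 2 that median was 0.00. Of 31 genes of auxin transport and synthesis, 21 lay below 0 (median -0.12, and 0.01 with OX9 of repeat 1 left out). The medians of repeats 1 and 2 for these genes were -0.04 and -0.02. The auxin carrier PILS5 stood at 82.5 and 87.0 FPKM in OX9 against 110.0 and 134 FPKM in WT (log2 -0.52, unadjusted p = 0.037). The kinase gene WAG1 stood at 1.37 and 0.971 FPKM in OX9 against 3.44 and 1.56 FPKM in WT (log2 -0.64, and -0.95 to -0.33 with 1 library left out). The auxin synthesis gene YUC2 stood at 1.24 and 0.827 FPKM in OX9 against 2.44 and 1.41 FPKM in WT (log2 -0.51, and -0.73 to -0.30). Both were lower at that level, and LBD29, a lateral root factor, was higher (0.71). Of 24 shade and PIF growth genes, 17 lay below 0 (median -0.15), with the bHLH factor PIF4 at 47.6 and 57.9 FPKM in OX9 against 54.0 and 77.3 FPKM in WT. The medians of repeats 1 and 2 for this list were -0.02 and -0.07. Its median over both repeats was 0.04 with OX9 of repeat 1 left out and 0.01 without the WT library of repeat 2. Of 9 GH3 enzymes tested, which conjugate auxin or jasmonate to amino acids, 7 lay below 0, with GH3.6 at -0.45 and a median of -0.05 that was -0.16 to -0.05 with any 1 library left out. In the gibberellin list, 14 of 23 lay below 0 (median -0.07, and 0.08 with WT of repeat 2 left out). There GASA6 stood at 264 and 132 FPKM in OX9 against 314 and 330.0 FPKM in WT. Its log2 difference was -0.78 (unadjusted p = 0.024 by limma, and -1.17 to -0.39 with 1 library left out). Set against the same WT libraries, asr3-1 had a SAUR median of -0.09, with 24 of 63 above 0, close to that of OX9. Its medians were -0.04 for Aux/IAA repressors and for shade genes, 0.02 for auxin transport and synthesis, 0.05 for GH3 enzymes and 0.03 for gibberellin.

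Of 30 early flg22 markers, 23 lay above 0 without flg22, with a median of 0.38 that changed sign with single libraries. None passed the test, and 2 were higher at an unadjusted p under 0.05 (2.00% of all genes tested were). Both OX9 libraries lay above both WT libraries in 14 of the 30, against 8.82% of all genes tested. The medians of the repeats were 0.55 and 0.24. WRKY29, a transcription factor of the flg22 response, stood at 25.1 and 24.4 FPKM in OX9 against 9.51 and 17.8 FPKM in WT (log2 0.87, SE 0.28, unadjusted p = 0.017). MLO12, a relative of the mildew susceptibility gene MLO, stood at 19.0 and 18.6 FPKM in OX9 against 8.42 and 12.2 FPKM in WT (log2 0.83, unadjusted p = 0.017). IGMT1, a methyltransferase of indole glucosinolates, stood at 72.1 FPKM in both OX9 libraries against 22.4 and 48.9 FPKM in WT (log2 1.1, SE 0.49). NHL10 went the other way, at 2.55 and 5.43 FPKM in OX9 against 2.71 and 11.9 FPKM in WT (log2 -0.53). The median of the list turned with single libraries: leaving out OX9 of repeat 1 gave -0.27 and leaving out WT of repeat 2 gave -0.07, but leaving out OX9 of repeat 2 gave 1.03 and leaving out WT of repeat 1 gave 0.79. In asr3-1, against the same WT libraries, the median was 0.22, with 22 of 30 above 0.

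Other lists of immunity lay on both sides of 0. The jasmonate list had 20 of 35 below 0 (median -0.05, and 0.10 and 0.00 with OX9 of repeat 2 or WT of repeat 1 left out). Of 61 WRKY factors, 42 lay above 0 (median 0.10), and WRKY29, WRKY72 (log2 0.49) and WRKY39 (0.22) were higher at an unadjusted p under 0.05. The list of indole glucosinolate and camalexin synthesis had 17 of 24 above 0 (median 0.14), and the camalexin enzyme CYP71A12 stood at 5.09 and 0.264 FPKM in OX9 against 0.345 and 0.234 FPKM in WT, apart in repeat 1 only. The salicylic acid list had 16 of 24 above 0 (median 0.12). PR1, a defence marker of salicylic acid, stood at 19.2 and 0 FPKM in OX9 against 0.426 and 0 FPKM in WT, and PR5 at 9.34 and 11.4 FPKM in OX9 against 7.51 and 8.59 FPKM in WT. ICS2, one of the isochorismate synthases, lay at a log2 difference of -0.70. Leaving out OX9 of repeat 1 gave medians of -0.16 for WRKY factors, -0.13 for indole glucosinolates and -0.42 for salicylic acid, and leaving out WT of repeat 2 gave 0.02, -0.05 and -0.34 for the same lists. The MAPK cascade had 18 of 33 genes above 0 (median 0.07, and -0.10 and -0.05 without those libraries). Medians of asr3-1 against the same WT libraries were 0.08 for WRKY factors (39 of 61 above 0) and 0.16 for indole glucosinolates (18 of 24). They were 0.11 for salicylic acid (17 of 24), 0.05 for the MAPK cascade and 0.21 for jasmonate. These shifts were therefore not particular to OX9, apart from that of the jasmonate list, which lay on the other side of 0.

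**Figure D4:**
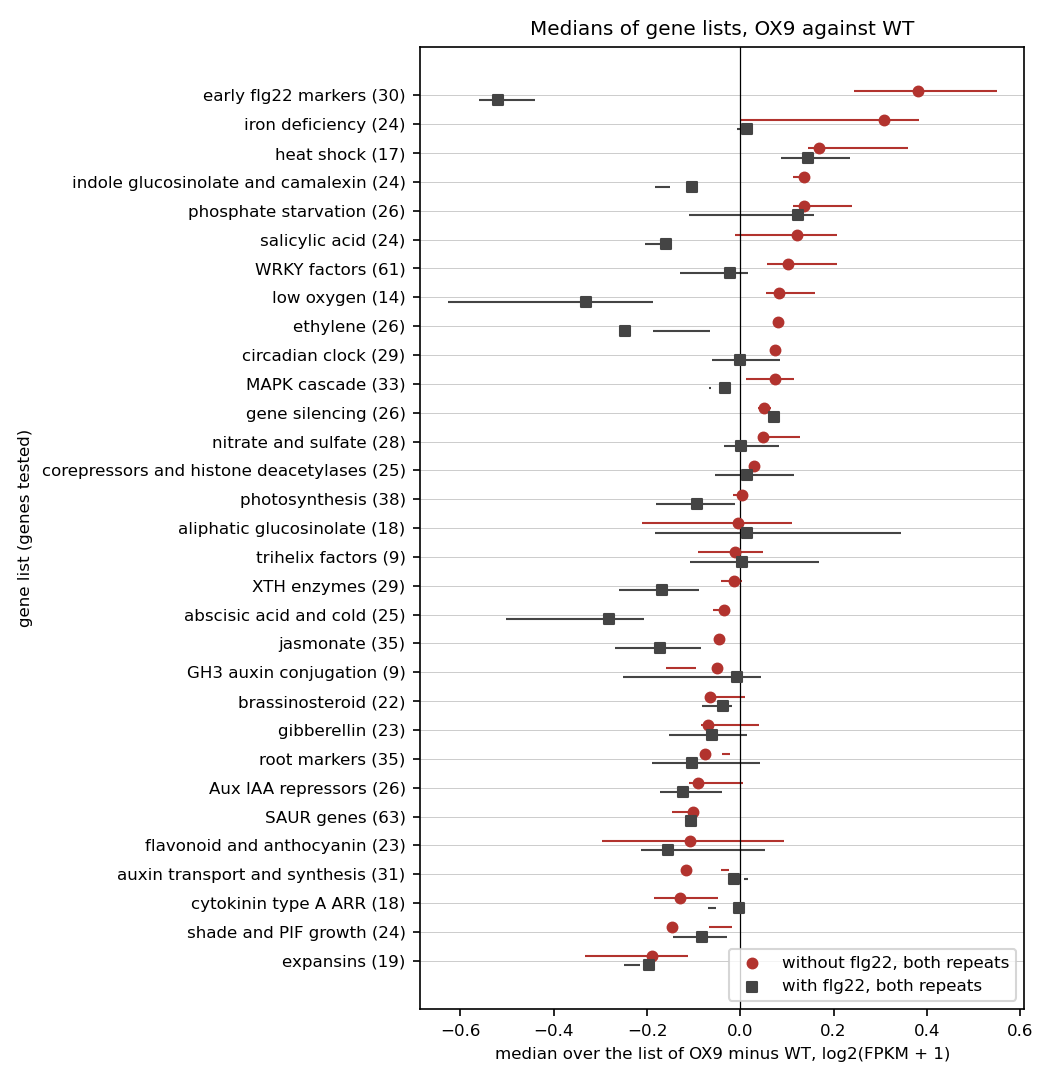
Median of OX9 minus WT over each gene list, on log2(FPKM + 1), for 31 lists ordered by the value without flg22, with the number of genes tested in brackets. Red circles are medians without flg22 and dark squares with flg22, and each line joins the medians of the single repeats; early flg22 markers lie at 0.38 without and -0.52 with flg22, and expansins at -0.19 and -0.20.

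Lists of nutrients held a few single genes. Iron deficiency genes had 17 of 24 above 0 and a median of 0.31 (0.15 to 0.40 with 1 library left out), but the medians of repeats 1 and 2 were 0.38 and 0, and with flg22 12 of 24 lay above 0 (median 0.01). In this list, bHLH38, a regulator of iron uptake, stood at 14.3 and 0.438 FPKM in OX9 against 5.02 and 0 FPKM in WT. The asr3-1 median was 0.37, against the same WT libraries. Phosphate starvation genes had 19 of 26 above 0, with a median of 0.14 that was 0.01 with WT of repeat 1 left out and 0.24 with WT of repeat 2 left out. In asr3-1, against the same WT libraries, 24 of 26 lay above 0 (median 0.22). PHO1;H1, a phosphate exporter gene, had a log2 difference of 0.42. Of 28 nitrate and sulfate genes, 15 lay above 0 (median 0.05, and -0.02 to 0.18 with 1 library left out), with 2 higher and 2 lower at an unadjusted p under 0.05. In this list, SDI1 and GGCT2;1, both raised by sulfur deficiency, stood lower in OX9 in each repeat. SDI1 was at 20.3 and 2.23 FPKM in OX9 against 44.1 and 4.22 FPKM in WT (log2 -0.89, unadjusted p = 0.0046), and GGCT2;1 at 16.4 and 2.37 FPKM in OX9 against 37.7 and 4.43 FPKM in WT (log2 -0.92, unadjusted p = 0.0083). Their differences in asr3-1 were -0.77 and -0.70. SULTR1;1, a sulfate transporter of the root, lay the other way (0.42). BT2, a nitrate-responsive scaffold gene, stood at 83.2 and 24.8 FPKM in OX9 against 9.03 and 17.8 FPKM in WT (log2 1.77, SE 0.73, unadjusted p = 0.046 by limma, and 0.46 to 3.07 with 1 library left out). IPT3, a cytokinin synthesis gene that nitrate raises, stood at 3.82 and 2.50 FPKM in OX9 against 1.82 and 1.66 FPKM in WT (log2 0.58). It is from the cytokinin list, where 12 of 18 genes lay below 0 (median -0.13, and -0.21 to 0.06 with 1 library left out). The cytokinin median of asr3-1 against the same WT libraries was -0.16, with 3 of 18 above 0.

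Genes of the factor's own kind and of repression differed little, and their medians turned with single libraries. Of 9 trihelix genes tested, ASR3 included, 4 lay above 0, with a median of -0.01 that was 0.01 after quantile normalization and 0.10 with WT of repeat 2 left out. GT-1 stood at 27.4 and 25.1 FPKM in OX9 against 20.8 and 22.8 FPKM in WT (log2 0.25), and GT2 at 3.96 and 4.10 FPKM in OX9 against 2.81 and 2.84 FPKM in WT (log2 0.40). Among 25 corepressors and histone deacetylases 13 lay above 0 (median 0.03, and -0.01 with OX9 of repeat 1 left out), and SNL4 (log2 0.30), a SIN3-like corepressor, and the deacetylase HDA9 (0.27) were higher at an unadjusted p under 0.05. Photosynthesis genes had 22 of 38 above 0 and a median of 0.00, which was -0.02 after scaling to the median of expressed genes, and -0.01 and -0.03 with OX9 of repeat 1 or WT of repeat 2 left out. The Rubisco subunit gene RBCS2B, which has close copies, stood at 2812 and 2024 FPKM in OX9 against 3835 and 3108 FPKM in WT (log2 -0.53, unadjusted p = 0.056). Root markers had 17 of 35 above 0 (median -0.08, and 0.04 with WT of repeat 2 left out), with CASP1, a gene of the Casparian strip, at a log2 difference of -0.36. Among 29 clock genes 22 lay above 0 (median 0.07, and -0.02 and -0.03 with OX9 of repeat 2 or WT of repeat 1 left out), while the morning genes CCA1 (-0.22) and LHY (-0.27) lay below it.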

How the data were processed

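RNA of whole Arabidopsis seedlings was sequenced in 12 libraries of 6 groups. The authors deposited FPKM (per the file headers), normalized to transcript length and library size. Tools in the submitters' processing notes, given there without a role, are Cuffdiff 2.2.1, TopHat2 2.0.12, cutadapt 1.0 and bcl2fastq 1.8.4, and TAIR10 is the build named. The flg22 dose is given in nM in the design text and in mM in the treatment protocol. No label or header states strandedness, so reads of antisense or overlapping partners cannot be separated. Lines without an identifier (693) and identifiers listed more than once (88) were left out, and 32722 of 33197 identifiers matched RefSeq names.

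On log2(FPKM + 1), 6 group means and the repeat as a block were fitted over 12 libraries with limma 3.58.1 in R 4.3.3 (mean-variance trend, robust moderation, 2-sided p, Benjamini-Hochberg over 20753 genes), and the code was tested on simulated data. The design text gives the numbers as independent repeats, and the repeat differences of OX9 and WT without flg22 correlated at 0.73 across genes (0.57 to 0.81 over 15 pairs of groups). P-values rest on the spread left among the 12 pooled libraries, 2 per group, after group means and the repeat were taken out, moderated across genes. They do not measure the spread between the libraries of OX9 or of WT alone.

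Genes were named by rule: ASR3, genes past the test, the 12 highest and 12 lowest as described, up to 4 per list by smallest p, and genes beside the first ones. The 31 lists hold 979 names, of which 923 matched 1 gene. The members and lists were chosen with earlier results of these data known. Alternatives were other blocks, fewer libraries, pseudocounts, filters, scalings, moderation without robustness, and each library left out.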

Additional observations from a re-analysis of the deposited data

Results flagged for a closer look

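Over 5 gene lists, the median of OX9 minus WT lay above 0 in both repeats without flg22 and below 0 in both repeats with flg22. The difference of these medians, with minus without flg22, was not tested as such, and no member passed the interaction test (limma, adjusted p under 0.05). For early flg22 markers the difference was -0.90 on the log2 scale, between a median of -0.52 with flg22 (1 of 30 genes above 0) and 0.38 without it. For low-oxygen genes it was -0.41, for ethylene genes -0.33, for indole glucosinolate and camalexin genes -0.24, and for the MAPK cascade -0.11. Of these 5 medians at rest, that of low-oxygen genes kept its sign with any 1 library left out (0.02 to 0.07), and the other 4 lay below 0 when OX9 of repeat 1 or WT of repeat 2 was left out.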

How the results depend on the processing

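Without flg22, the count of higher genes was 2 and of lower genes 0. With the repeat-by-treatment block, with the 6 libraries without flg22, with the 4 libraries compared only and with no filter on low values, 1 gene was higher. With the 4 libraries only, 1 gene, AT5G65609, was lower. Leaving out 1 library gave 0 to 8 genes higher and 0 to 2 lower. ASR3 had a log2 difference of 5.99 with the 6 libraries without flg22, where its adjusted p was 0.127, and 5.67 to 6.31 with 1 library left out. Its adjusted p was 0.0031 to 0.134 over all alternatives. With flg22, against 1 gene higher and 0 lower, the repeat-by-treatment block gave 4 higher and 4 lower, the 4 libraries only 2 higher and 1 lower, and leaving out 1 library 0 to 5 higher and 0 to 5 lower. With no replicate block the counts past the test were the same in both conditions, and the 2 genes at rest again passed (ASR3 adjusted p = 0.0055 by limma). The number of genes at an unadjusted p under 0.05 depended strongly on the block. It was 807 at rest and 816 with flg22 in the main fit, and 173 and 164 with no block. With the repeat-by-treatment block it was 1274 and 1608. The choice of leading genes and the overlap of both conditions rest on that level.

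AT2G01422 also missed the test with the repeat-by-treatment block, the 4 libraries only, the pseudocount of 0.1 and no filter (adjusted p = 0.055 to 0.074). AT1G51920 passed with the pseudocount of 0.1, and AT3G16712 without the OX9 library of repeat 1. With 1 library left out, where the lone library was assumed to vary like the other groups, the sign turned for HB17 (-0.45 to 0.57), AT2G33540 (-0.084 to 0.030), BUBR1 (-0.011 to 0.38) and AT3G55310 (-0.28 to 0.58). Of 1168 values of 78 named genes, AT2G01422, AT5G65609 and these 6 included, 1151 kept direction and side of the threshold, and the 17 others belong to these 8 genes. Much of this count was fixed beforehand. Other blocks, the fits of 6 or 4 libraries, the filters and the moderation leave the log2 difference unchanged, so direction could not turn there. All of the 78 but AT2G01422 missed the test in the main fit, so the count is no measure of robustness. Of 465 medians of gene lists under the alternatives, 46 had the other sign, 2 of them by scaling and most of the others with 1 library left out. Each cause was not tested. Only FPKM were at hand, so counting error could not be set against the spread between libraries.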
